A study of Homo sapiens with 4 samples.

Results

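Macroautophagy is the route by which a cell wraps cytoplasm or whole organelles in a new double membrane, the autophagosome, and passes them to the lysosome, and mitophagy is the branch that removes mitochondria. The genes described here are 45 components of that route, taken by symbol from a written list, and all 45 were found among the 20804 genes of the deposited table. That list was chosen with earlier results of these data known, so its shares of called genes are not independent of them. RNA was sequenced from MDA-MB-231, an established human line of triple-negative breast cancer (a tumour class without the oestrogen and progesterone receptors and without HER2). There were 2 libraries of KO cells, whose genotype label gives a knockout of the microRNA miR-3662, and 2 libraries of WT cells of the same line. No treatment or time is labelled for either group. The series title names CRISPR interference and activation, and the design text names sorting by the activity of the microRNA, so what the label KO stands for is uncertain. The labels give neither the way the knockout was made nor whether a group came from 1 clone or from separate cultures. Every p-value below therefore rests on the spread between libraries of the same group, with information on variance shared across the tested genes. That spread may be technical.

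The pathway runs through proteins with distinct tasks. The ULK1 kinase complex starts it, and a phosphatidylinositol 3-kinase complex around PIK3C3 and BECN1 marks the membrane. ATG9A, ATG2 proteins and VMP1 supply lipid, and WIPI proteins, which read the mark, are grouped with them here. A ubiquitin-like conjugation system then attaches small proteins of the ATG8 family (the LC3 and GABARAP proteins) to the growing membrane, and ATG4 proteases trim ATG8 proteins before attachment and remove them later. Cargo receptors such as SQSTM1 (p62) bind ubiquitin on the cargo and ATG8 proteins on the membrane. On mitochondria, BNIP3, BNIP3L and FUNDC1 bind ATG8 proteins directly, and the kinase PINK1 marks damaged mitochondria for removal. Several receptors are themselves degraded with their cargo, and RNA levels do not measure the flux through the route.

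The microRNA that the KO label names is hsa-miR-3662, of 24 nucleotides, encoded within an intron of HBS1L at chr6:134979355-134979378, minus strand (GRCh38, RefSeq). Its sequence is shown because its seed, bases 2 to 8, set in capitals, is what was searched for in the transcripts of the autophagy genes.
hsa-miR-3662: gAAAAUGAugaguagugacugaug
A microRNA usually binds messenger RNA by pairing of this seed with the 3′ UTR, and a match to it reads TCATTTT in DNA letters. The deposited table holds no value for the mature microRNA, so the knockout itself was not checked here.

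Expression was given as FPKM, fragments scaled by transcript length and by library size. FPKM summed to 528990 and 544650 in the KO libraries and to 504100 and 520530 in the WT libraries, and 11720 and 11723 genes in KO against 11283 and 11344 in WT reached 1 FPKM. Depth is not stated in the sources used here. Low values of short genes fell, roughly, on multiples of a common step, which would correspond to 23600000 and 23600000 fragments in KO and to 24200000 and 23700000 in WT. Of the receptor genes listed for the labelled line, ESR1 was at most 0.01 FPKM in every library and ERBB2 was between 8.55 and 11.4 FPKM. No value was found under the name PGR. The mesenchymal marker VIM was between 1120 and 1321 FPKM, and the luminal marker CDH1 was at most 0.03 FPKM. The 6 mesenchymal markers summed to 2287 and 2343 FPKM in KO and to 2096 and 2232 FPKM in WT. Within that sum, CAV1 was higher in KO, at 443 and 450 FPKM against 179 and 170 FPKM in WT. MSN was lower in both KO libraries, at 162 and 159 FPKM against 195 and 206 FPKM in WT. For the other mesenchymal markers, KO and WT values overlapped. Of the 5 leukocyte markers, PTPRC and CD3E were at 0 in all 4 libraries, and the summed level of the list was 68.5 and 118 FPKM in KO, against 30.6 and 39.8 FPKM in WT. Nearly all of that sum was CD68, a lysosomal membrane glycoprotein gene, at 67.7 and 117 FPKM in KO and 30.1 and 39.0 FPKM in WT. Summed endothelial markers were 0.27 and 0.45 FPKM in KO and 0.12 and 0.15 FPKM in WT, and summed fibroblast markers were 0.36 and 0.27 FPKM in KO and 1.11 and 1.45 FPKM in WT. The luminal epithelial markers summed to 20.2 and 29.1 FPKM in KO and to 17.1 and 23.0 FPKM in WT. Most of that sum was KRT19, at 17.42 and 26.51 FPKM in KO and 13.99 and 19.92 FPKM in WT, with overlapping groups. A low CDH1 therefore did not stand for the whole luminal list. GATA3 was between 1.14 and 1.83 FPKM, and EPCAM was lower in KO, at 0.34 and 0.05 FPKM against 1.08 and 1.15 FPKM in WT.

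Of the 45 autophagy genes, 43 reached at least 1 FPKM in all 4 libraries and were tested. The 2 others were close to 0: the LC3 gene MAP1LC3A was listed at 0.04 and 0.04 FPKM in KO and at 0.04 and 0.08 FPKM in WT, and the kinase gene ULK2 at 0 and 0.01 FPKM in KO and at 0 in both WT libraries. In KO cells, 10 of the 43 rose and 2 fell at an adjusted p under 0.05 (limma, adjusted over all 11786 genes tested), and 31 did not pass. The share that rose was 23.3%, against a background of 16.2% of all tested genes, and the share that fell was 4.65%, against 10.8%; in either direction 27% of all tested genes were called. Both KO values lay above both WT values for 21 genes (48.8%, against 39.3% of all tested genes) and below them for 7 genes (16.3%, against 28.7%), and the groups overlapped for 15. The median log2 fold change was 0.17 over the 43 genes and 0.07 over all tested genes. The genes that rose were the receptors SQSTM1, OPTN, TAX1BP1, BNIP3L and BNIP3, the kinase PINK1, the ATG8 gene GABARAP, the initiation scaffold RB1CC1, and the membrane genes WIPI1 and VMP1. ATG4D and VCP fell. The count of rises was 5 without the second KO library, 6 without the first WT library and 2 when genes with low values were kept in the test; the count of falls was 1 without the first or without the second WT library and 0 with low genes kept. In bulk RNA, more cells with a transcript and more of it per cell cannot be told apart.

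**Figure D1:**
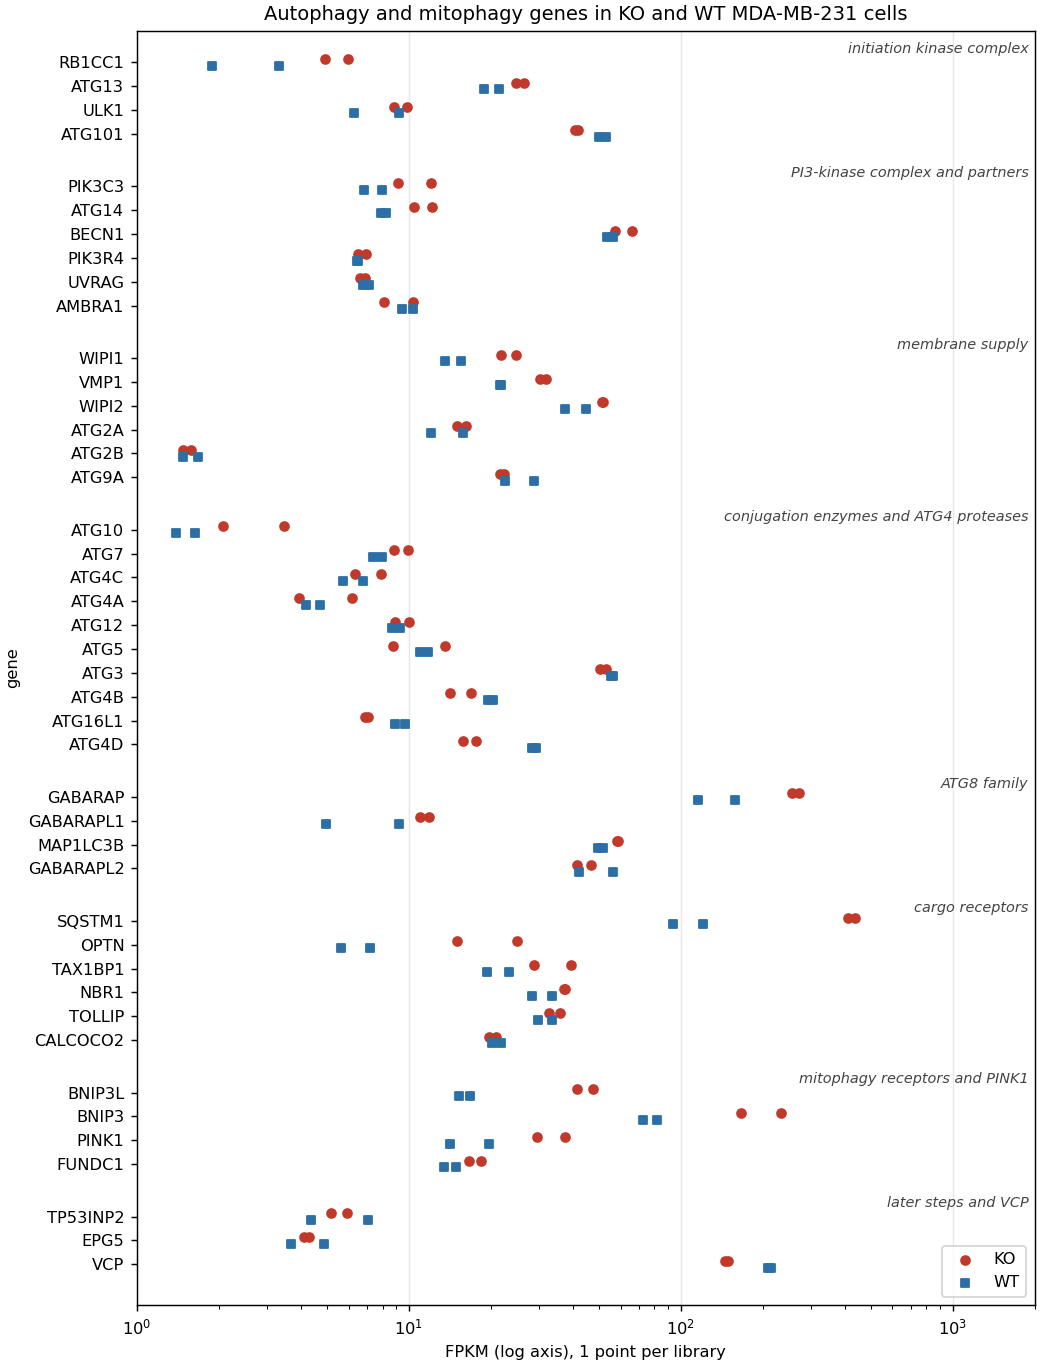
FPKM of the 43 tested autophagy and mitophagy genes in each library (log axis; red circles, 2 KO libraries; blue squares, 2 WT libraries), grouped by role. The 4 genes whose log2 fold change exceeds 1 are SQSTM1, OPTN, BNIP3L and BNIP3, whose KO values all lie to the right of their WT values, while for 15 genes the groups overlap.

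**Figure D2:**
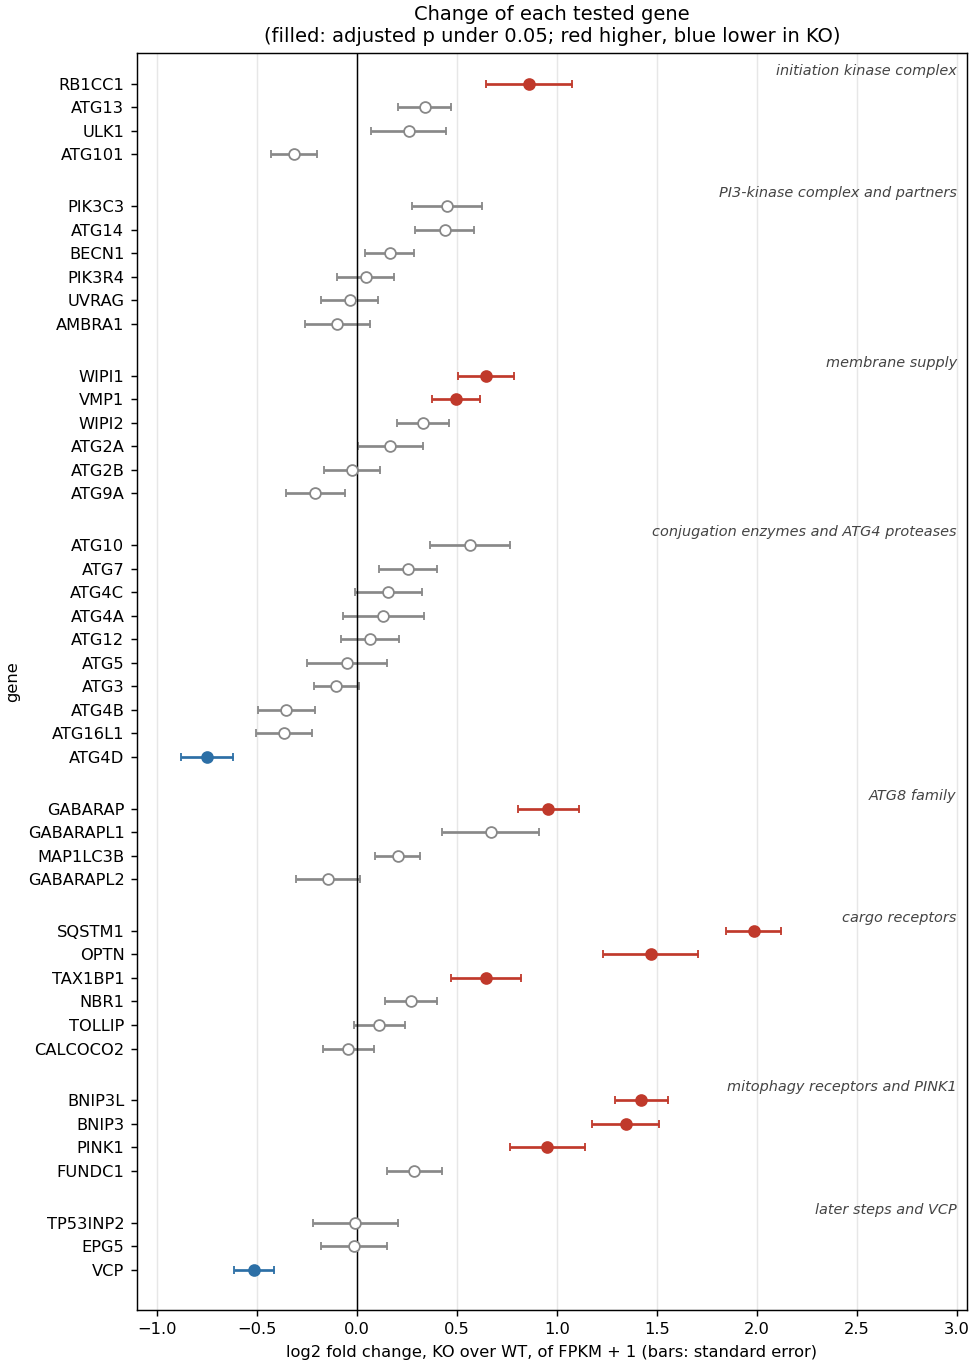
Log2 fold change of FPKM + 1, KO over WT, of each tested gene, with its standard error; filled points passed an adjusted p of 0.05, red for the 10 that rose in KO and blue for ATG4D and VCP, which fell. The receptor and mitophagy groups hold the points furthest to the right. The PI3-kinase group holds no filled point among its 6 genes, where 27% of all tested genes were called.

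Among the cargo receptors, 3 of 6 rose in KO cells and none fell (16.2% and 10.8% of all tested genes did), and the median log2 fold change was 0.46, against 0.07 over all tested genes. A group of 6 is small, and these shares were not tested. SQSTM1, the receptor that gathers ubiquitinated protein and that also binds KEAP1, the repressor of the antioxidant regulator NRF2, had 411 and 435 FPKM in KO and 93.4 and 121 FPKM in WT. Its KO libraries stood far above its WT libraries, the log2 fold change was 1.99 ± 0.14 (SE, n = 2 per group; adjusted p = 0.0004, limma), and the ratio of the means was 3.96. OPTN, a receptor of ubiquitinated mitochondria and bacteria, had 15.0 and 25.0 FPKM in KO and 5.61 and 7.21 FPKM in WT (log2 fold change 1.47 ± 0.24; adjusted p = 0.0060). Its 2 KO libraries differed widely from each other, and the lower of them was still above both WT libraries. TAX1BP1, which with its relatives brings ubiquitinated aggregates to the autophagosome, had 28.9 and 39.4 FPKM in KO and 23.4 and 19.3 FPKM in WT (log2 fold change 0.65 ± 0.18; adjusted p = 0.0322). The gap between its lower KO and its higher WT library was narrow.

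The other 3 cargo receptors did not pass the test. NBR1, a receptor built much like SQSTM1, had 37.6 and 37.2 FPKM in KO and 28.4 and 33.6 FPKM in WT (log2 fold change 0.27; adjusted p = 0.160). CALCOCO2 (NDP52), a relative of TAX1BP1, had 19.8 and 20.9 FPKM in KO and 20.2 and 21.8 FPKM in WT, with overlapping groups and a 95% confidence interval of the log2 fold change from -0.34 to 0.25. TOLLIP, which binds ubiquitin through another type of domain, had 35.8 and 32.8 FPKM in KO and 29.8 and 33.7 FPKM in WT, also overlapping. The 6 receptors summed to 549 and 591 FPKM in KO and to 201 and 236 FPKM in WT, and SQSTM1 held 75.0% and 73.7% of that sum in KO against 46.5% and 51.1% in WT.

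All 4 mitophagy genes had both KO values above both WT values, as did 39.3% of all tested genes, and 3 of them rose, as did 16.2% of all. Their median log2 fold change was 1.15. A group of 4 is small, and these shares were not tested. BNIP3, a receptor in the outer mitochondrial membrane that is known as a hypoxia-induced gene, had 166 and 233 FPKM in KO and 81.6 and 72.4 FPKM in WT (log2 fold change 1.34 ± 0.17, SE, n = 2 per group; adjusted p = 0.0027). BNIP3L (NIX), its close relative that clears mitochondria from maturing red cells, had 41.5 and 47.7 FPKM in KO and 15.2 and 16.7 FPKM in WT (log2 fold change 1.42 ± 0.13; adjusted p = 0.0011). Within each group the BNIP3L values were close to each other, and the ratio of the means was 2.79, near the 2.59 of BNIP3. PINK1, the kinase that phosphorylates ubiquitin on damaged mitochondria, had 29.5 and 37.6 FPKM in KO and 14.2 and 19.7 FPKM in WT (log2 fold change 0.95 ± 0.19; adjusted p = 0.0115). FUNDC1, another receptor of the outer membrane, had 16.6 and 18.5 FPKM in KO and 14.9 and 13.5 FPKM in WT (log2 fold change 0.29; adjusted p = 0.156) and did not pass. BNIP3 was the most abundant of the 4 in every library, per length, with 65.5% and 69.2% of their sum in KO and 64.8% and 59.2% in WT. The sum itself was 254 and 337 FPKM in KO and 126 and 122 FPKM in WT. BNIP3 has 39 processed copies or other pseudogenes named after it in GENCODE 29, and how the authors assigned reads shared with them is not stated, so its level is uncertain to that extent.

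In the ATG8 family, GABARAP rose and the other 3 expressed genes did not pass, where 16.2% of all tested genes rose. GABARAP had 273 and 256 FPKM in KO and 116 and 158 FPKM in WT (log2 fold change 0.96 ± 0.15, SE, n = 2 per group; adjusted p = 0.0058), with the WT libraries further apart than the KO libraries. GABARAPL1, the member nearest to GABARAP in sequence, had 11.9 and 10.9 FPKM in KO and 4.97 and 9.18 FPKM in WT (log2 fold change 0.67; adjusted p = 0.0757). MAP1LC3B, which encodes the LC3B protein used as the common autophagosome marker, had 58.0 and 58.5 FPKM in KO and 49.4 and 51.7 FPKM in WT. Its groups did not overlap, but the log2 fold change was 0.20, with a 95% confidence interval from -0.06 to 0.46 (adjusted p = 0.208). Reads of MAP1LC3B may be shared with its near-identical copy MAP1LC3B2, which leaves its level uncertain. GABARAPL2 (GATE-16) had 46.8 and 41.4 FPKM in KO and 42.1 and 56.5 FPKM in WT, and its groups overlapped (log2 fold change -0.15; adjusted p = 0.526). Summed over the family the level was 389 and 367 FPKM in KO and 213 and 276 FPKM in WT. GABARAP was the most abundant member per length in every library, with 70.0% and 69.8% of the sum in KO and 54.6% and 57.4% in WT, and MAP1LC3B held 14.9% and 16.0% in KO and 23.2% and 18.7% in WT. With 2 libraries per group, an exact permutation test of such a share cannot give a two-sided p below 0.333, so these shares were not tested.

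**Figure D3:**
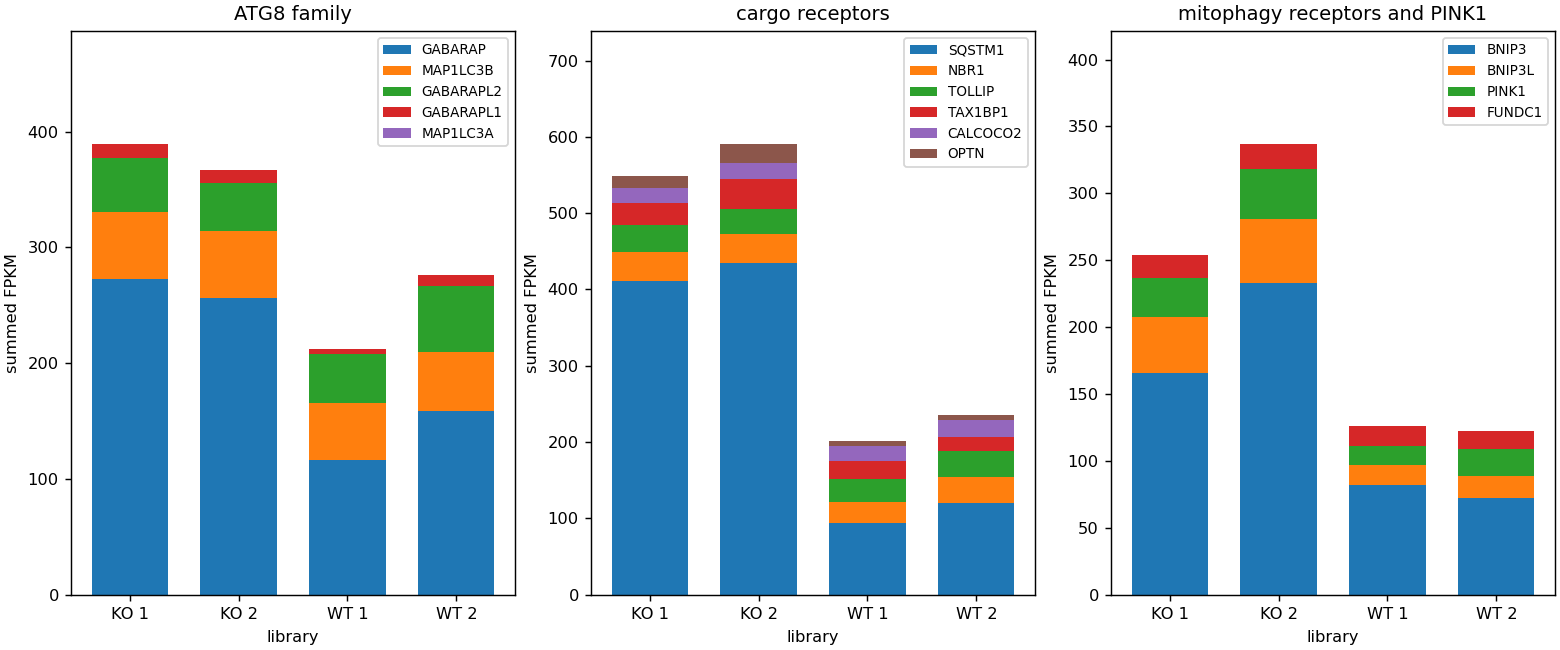
Summed FPKM of the ATG8 family, the cargo receptors, and the mitophagy receptors with PINK1 in each library (KO 1, KO 2, WT 1, WT 2), stacked by gene. GABARAP makes up 70.0% and 69.8% of the ATG8 sum in KO against 54.6% and 57.4% in WT, and SQSTM1 makes up 75.0% and 73.7% of the receptor sum in KO against 46.5% and 51.1% in WT.

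Of the 10 conjugation enzymes and ATG4 proteases, none rose and ATG4D fell, where 16.2% of all tested genes rose and 10.8% fell. In a group of 10 genes, such counts cannot be told apart from those shares. Their median log2 fold change was 0.01, against 0.07 over all tested genes. ATG4D, 1 of 4 proteases that process ATG8 proteins, had 15.8 and 17.7 FPKM in KO and 28.3 and 29.2 FPKM in WT (log2 fold change -0.75 ± 0.13, SE, n = 2 per group; adjusted p = 0.0073). The 4 values fell into tight, separate pairs. ATG4B, the most active of these proteases on LC3 proteins, had 16.9 and 14.1 FPKM in KO and 19.6 and 20.4 FPKM in WT (log2 fold change -0.35; adjusted p = 0.102). ATG4A had 3.93 and 6.19 FPKM in KO and 4.70 and 4.18 FPKM in WT, and ATG4C had 6.32 and 7.90 FPKM in KO and 6.79 and 5.73 FPKM in WT. Both pairs of groups overlapped. The 4 proteases summed to 43.0 and 45.9 FPKM in KO and to 59.4 and 59.6 FPKM in WT, and ATG4D held 36.8% and 38.5% of that sum in KO and 47.7% and 49.1% in WT.

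The conjugation enzymes themselves gave values on either side of 0. ATG10, the E2-like enzyme that joins ATG12 to ATG5, was low, with 2.07 and 3.48 FPKM in KO and 1.39 and 1.63 FPKM in WT (log2 fold change 0.56; adjusted p = 0.0722). ATG16L1, which positions the ATG12-ATG5 conjugate on the membrane, had 7.05 and 6.91 FPKM in KO and 8.92 and 9.65 FPKM in WT (log2 fold change -0.37; adjusted p = 0.0919). Neither passed, although the groups of both did not overlap. ATG3, ATG5, ATG7 and ATG12 had log2 fold changes from -0.10 (ATG3) to 0.25 (ATG7), and the KO and WT values of ATG5 and ATG12 overlapped.

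In the initiation kinase complex, RB1CC1 (FIP200), the large scaffold on which the complex assembles, rose. It had 4.90 and 5.95 FPKM in KO and 3.32 and 1.88 FPKM in WT (log2 fold change 0.86 ± 0.21, SE, n = 2 per group; adjusted p = 0.0242), a change at low levels with WT libraries that differed from each other. ATG13, the regulatory subunit, had 26.6 and 24.8 FPKM in KO and 18.9 and 21.4 FPKM in WT (log2 fold change 0.34; adjusted p = 0.0939). ATG101, which binds and stabilises ATG13, had 40.9 and 41.8 FPKM in KO and 50.1 and 53.2 FPKM in WT (log2 fold change -0.31; adjusted p = 0.0790). The kinase ULK1 had 9.80 and 8.83 FPKM in KO and 6.27 and 9.20 FPKM in WT, with overlapping groups. The subunits of this complex therefore gave values of either sign, with 1 call among 4 tested (27% of all tested genes were called).

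No gene of the PI3-kinase complex and its partners passed the test, where 27% of all tested genes did. A group of 6 is too small to be told apart from that share. The median log2 fold change of the 6 was 0.10, against 0.07 over all tested genes. PIK3C3 (VPS34), the lipid kinase, had 9.11 and 12.03 FPKM in KO and 7.98 and 6.86 FPKM in WT (log2 fold change 0.45; adjusted p = 0.0908). ATG14, the subunit that directs the kinase to autophagy, had 12.2 and 10.4 FPKM in KO and 7.87 and 8.22 FPKM in WT (log2 fold change 0.44; adjusted p = 0.0613). For both, the lower KO library was above the higher WT library. BECN1, the core subunit of the complex, had 57.4 and 66.4 FPKM in KO and 56.4 and 53.6 FPKM in WT, with a 95% confidence interval of the log2 fold change from -0.12 to 0.45. The pseudokinase PIK3R4, the BECN1 partner UVRAG, which steers the kinase to endosomes, and the scaffold AMBRA1 had overlapping groups and log2 fold changes from -0.10 (AMBRA1) to 0.04 (PIK3R4).

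Of the 6 genes grouped as membrane supply, WIPI1 and VMP1 rose and none fell (16.2% and 10.8% of all tested genes did). In a group of 6, such counts cannot be told apart from those shares. WIPI1, which reads phosphatidylinositol 3-phosphate on the young membrane, had 21.9 and 24.7 FPKM in KO and 13.6 and 15.5 FPKM in WT (log2 fold change 0.65 ± 0.14, SE, n = 2 per group; adjusted p = 0.0151). VMP1, a lipid scramblase of the endoplasmic reticulum, had 30.2 and 31.8 FPKM in KO and 21.73 and 21.65 FPKM in WT (log2 fold change 0.50 ± 0.12; adjusted p = 0.0226). These 2 genes gave clearly separated pairs with a modest difference. WIPI2, the paralog that recruits ATG16L1, had 51.9 and 51.4 FPKM in KO and 37.5 and 44.6 FPKM in WT (log2 fold change 0.33; adjusted p = 0.0946). The lipid transfer genes ATG2A and ATG2B and the scramblase gene ATG9A had log2 fold changes from -0.21 (ATG9A) to 0.17 (ATG2A), and none passed.

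Of the 3 genes grouped as later steps, VCP fell, as did 10.8% of all tested genes. VCP (p97) is the ATPase that pulls ubiquitinated proteins out of membranes and complexes for the proteasome and that also serves autophagosome maturation and the clearance of damaged lysosomes. It had 146 and 149.7 FPKM in KO and 209 and 214 FPKM in WT (log2 fold change -0.52 ± 0.10, SE, n = 2 per group; adjusted p = 0.0109), and replicate libraries differed little. TP53INP2, a nuclear cofactor that moves to autophagosomes, had 5.94 and 5.18 FPKM in KO and 4.36 and 7.09 FPKM in WT. EPG5, a tether between autophagosome and lysosome, had 4.29 and 4.12 FPKM in KO and 4.88 and 3.69 FPKM in WT, and the groups of both genes overlapped. Over all 45 genes, 22 of the 31 that did not pass had a log2 fold change between -0.21 and 0.29, which at 2 libraries per group does not show that they were alike.

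Where the called genes lie matters for how their reads could be assigned. SQSTM1 lies on chromosome 5 (179806398 to 179838078, plus strand, GRCh38, GENCODE 29), OPTN on chromosome 10 (13099449 to 13138308, plus), BNIP3 on chromosome 10 (131966455 to 131982013, minus), and BNIP3L on chromosome 8 (26382898 to 26505636, plus). GABARAP lies on chromosome 17 (7240014 to 7242770, minus), VCP on chromosome 9 (35056064 to 35073249, minus) and ATG4D on chromosome 19 (10543895 to 10553418, plus). TAX1BP1 lies on chromosome 7 (27739331 to 27844564, plus), PINK1 on chromosome 1 (20633455 to 20651511, plus) and RB1CC1 on chromosome 8 (52622456 to 52745843, minus). WIPI1 (68420948 to 68457513, minus) and VMP1 (59707192 to 59842255, plus) both lie on chromosome 17. Of the 12 called genes, 9 share exon bases with a gene annotated on the other strand, and the share over all genes was not counted. Genes that were not called do so too, among them ATG7 (1596 bases with VGLL4), ATG10 (374 with RPS23) and BECN1 (300 with PSME3). No source used here says whether the authors' counting used strand. Without strand, reads of such partners cannot be told apart. SQSTM1 shares 105 exon bases with MGAT4B, which had 222 and 189 FPKM in KO and 97.5 and 107 FPKM in WT, and 1582 bases with MRNIP. BNIP3L shares 330 bases with PNMA2, which had 16.4 and 15.2 FPKM in KO and 5.63 and 5.69 FPKM in WT. The partners MGAT4B and PNMA2 were thus higher in both KO libraries too. PINK1 shares 1907 bases with the antisense gene PINK1-AS and WIPI1 shares 828 with ARSG, which had 2.51 and 2.27 FPKM in KO and 1.76 and 1.58 FPKM in WT. ATG4D shares 341 bases with KRI1, which was lower in both KO libraries, with 27.0 and 25.7 FPKM in KO and 30.8 and 34.1 FPKM in WT. OPTN shares 147 bases with CCDC3, which had 0.63 and 1.21 FPKM in KO and 0.39 and 0.50 FPKM in WT. ARSG, KRI1 and CCDC3 thus differed in the same direction as their partners, and the part of all 5 such genes in the results was not tested. No value was found under the names MRNIP and PINK1-AS, so the levels of these partners are not known here. VMP1 and TAX1BP1 share 162 and 415 bases with PTRH2 and JAZF1, whose KO and WT values overlapped. On its own strand, VMP1 also shares 72 exon bases with the microRNA gene MIR21, and PINK1 shares 110 with MIR6084. Strand would not separate such reads. GABARAP shares 691 exon bases with the protein-coding model AC120057.2 on its own strand and 571 with another model on the other strand. BNIP3, RB1CC1 and VCP share none with a gene on the other strand.

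A further description, made without a test, concerns where the members carry letters that pair with the microRNA. When the longest 3′ UTR that GENCODE 29 annotates for a gene was searched, TCATTTT was present in 19 of the 43 tested autophagy genes (44.2%) and in 33.5% of 10618 tested genes with a 3′ UTR. Genes with the letters have longer 3′ UTRs: the median length was 2668 bases with and 1060 without among the autophagy genes, and 2798 with and 898 without among all genes; the part of length in these shares was not tested. The median log2 fold change was 0.26 with and 0.17 without among the autophagy genes, and 0.09 with and 0.06 without among all genes. Of the 12 called genes, 5 carry the letters, all of them among the 10 that rose: BNIP3, BNIP3L, RB1CC1, TAX1BP1 and VMP1. SQSTM1, OPTN, PINK1, GABARAP and WIPI1, which also rose, do not, and neither do ATG4D and VCP. A match is a description of the letters and not evidence of binding.

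The matches of 3 of the genes that rose are shown 5′ to 3′ on the transcript strand, with the letters opposite the seed in capitals and 11 bases on each side, so that they can be set beside the microRNA above. BNIP3 carries a pair of matches on the minus strand at chr10:131969349-131969355 (a) and chr10:131968939-131968945 (b), TAX1BP1 carries 1 on the plus strand at chr7:27842064-27842070, and VMP1 carries 1 on the plus strand at chr17:59841044-59841050 (GRCh38, GENCODE 29 transcripts).
BNIP3 (a): cctcgggatccTCATTTTaaatacaaggt
BNIP3 (b): gggcaggggctTCATTTTtaagcagttgg
TAX1BP1: tttattgggttTCATTTTaataggcatta
VMP1: attgaacttgtTCATTTTgttttgcttgg
The capitals are the same in all, and the flanking bases differ.

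Letters known from regulators of autophagy genes were counted in RefSeq promoter windows (GRCh38.p14, 250 bases before to 50 after each gene start). There were 48 windows for 38 of the 45 genes (the called genes BNIP3L, PINK1, RB1CC1 and ATG4D were not searched), set beside 34943 windows of all genes, and both strands were read. The E-box CACGTG, which TFEB and its relatives bind and which contains ACGTG, was in 6.25% of the autophagy windows and in 7.23% of all windows. The hypoxia element core ACGTG was in 29.2% of autophagy windows and in 21.4% of all windows, and the core GCGTG was in 52.1% and in 36.5%. Of the 14 autophagy genes with ACGTG, BNIP3, VCP and VMP1 were called, and VCP fell. Of the 23 with GCGTG, BNIP3, GABARAP, TAX1BP1, VCP and VMP1 were called (27% of all tested genes were). Of the 3 with the E-box, only BNIP3 was called. ATG3, which was not called, held 9 matches in its window and BNIP3 held 7, with nested matches counted. The antioxidant element TGACNNNGC was in 10.4% and in 13.3%, and the FOXO element TGTTTAC in 2.08% and in 3.42%. The median GC content was 64% in the autophagy windows and 58.7% in all windows, and its part in these shares was not tested.

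The upstream 250 bases of 3 windows are given, for the mitophagy receptor gene BNIP3, for SQSTM1 and for VCP, which fell, with every match to the letters above, read on either strand, in capitals. They lie at chr10:131981924-131982173 on the minus strand (BNIP3), at chr5:179820655-179820904 on the plus strand (SQSTM1, the furthest downstream of 3 annotated starts) and at chr9:35072626-35072875 on the minus strand (VCP).
BNIP3: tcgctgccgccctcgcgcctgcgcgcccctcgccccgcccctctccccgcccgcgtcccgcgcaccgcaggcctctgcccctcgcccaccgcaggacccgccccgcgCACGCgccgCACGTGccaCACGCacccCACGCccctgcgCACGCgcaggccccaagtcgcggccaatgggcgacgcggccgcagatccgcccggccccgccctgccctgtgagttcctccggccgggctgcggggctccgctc
SQSTM1: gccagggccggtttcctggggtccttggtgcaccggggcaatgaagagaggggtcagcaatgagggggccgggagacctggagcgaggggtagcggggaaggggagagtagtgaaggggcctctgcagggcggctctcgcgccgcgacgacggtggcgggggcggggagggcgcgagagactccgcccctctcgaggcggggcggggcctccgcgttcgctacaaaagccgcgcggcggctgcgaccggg
VCP: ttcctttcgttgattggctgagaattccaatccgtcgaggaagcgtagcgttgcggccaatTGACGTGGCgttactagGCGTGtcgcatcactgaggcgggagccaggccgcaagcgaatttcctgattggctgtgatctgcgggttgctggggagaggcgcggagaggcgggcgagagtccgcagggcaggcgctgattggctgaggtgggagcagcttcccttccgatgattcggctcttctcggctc
In BNIP3, CACGTG starts at position -134 from the gene start, and the other-strand form of the core with G, CACGC, occurs at 4 places around it. In VCP, TGACGTGGC starts at position -189 and holds ACGTG within it. None of the 3 SQSTM1 windows holds any of the letters searched, which says only that they are not in these windows.

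Other genes of the same pathway, outside the 45, were taken from a list of upstream signalling, transcription factor, fusion, receptor and VCP cofactor genes. This list, too, was chosen with earlier results of these data known. Of 95 listed, 89 were tested, 22 rose (24.7%, against the 16.2% background), 6 fell (6.74%, against 10.8%), and the median log2 fold change was 0.10. Leaving out 1 library gave 8 to 15 rises (11 without the first KO library, 8 without the second, 9 without the first WT library) and 1 to 3 falls, and median-of-ratios scaling gave 17 rises and 9 falls. Selective receptors and mitophagy regulators beyond the 45 gave 9 rises (37.5%) and no fall among 24, against the same backgrounds, with a median of 0.20. These shares were not tested. LGALS3, a galectin that gathers on ruptured lysosomes, had 227 and 193 FPKM in KO and 44.9 and 61.4 FPKM in WT (log2 fold change 1.98 ± 0.17, SE, n = 2 per group; adjusted p = 0.0008). LGALS8, the galectin that brings CALCOCO2 to damaged vesicles, had 18.75 and 18.74 FPKM in KO and 6.40 and 5.49 FPKM in WT (log2 fold change 1.51; adjusted p = 0.0012). CCPG1, a receptor for the endoplasmic reticulum, had 11.02 and 11.82 FPKM in KO and 4.60 and 3.26 FPKM in WT (log2 fold change 1.35; adjusted p = 0.0031). The KO and WT values of these 3 genes did not overlap. WDR45 (WIPI4), a partner of the ATG2 proteins and relative of WIPI1, had 39.7 and 44.1 FPKM in KO and 14.3 and 19.8 FPKM in WT (log2 fold change 1.26; adjusted p = 0.0034).

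Of the 11 transcription factor genes on the list, 2 rose and 4 fell (16.2% and 10.8% of all tested genes did). TFEB, the lysosome and autophagy regulator, was low, with 1.22 and 1.24 FPKM in KO and 2.07 and 3.72 FPKM in WT (log2 fold change -0.77; adjusted p = 0.0323). Its paralog TFE3 had 22.4 and 22.6 FPKM in KO and 31.2 and 34.4 FPKM in WT (log2 fold change -0.52; adjusted p = 0.0204). TFEB and TFE3 act mainly through movement of the protein into the nucleus, which RNA does not show. ATF4, the factor of the amino acid response, had 180.4 and 207 FPKM in KO and 274 and 354 FPKM in WT (log2 fold change -0.69; adjusted p = 0.0138). The upstream signalling genes gave 5 rises and 2 falls among 18, and the other initiation genes 2 rises among 15. The fusion genes gave 3 rises among 14, and the VCP cofactors 1 rise among 7. These counts stand beside the same 16.2% and 10.8% of all tested genes.

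The called genes differed in how far their call rested on single libraries. SQSTM1 and BNIP3L kept their call under all 10 other settings tried, with log2 fold changes from 1.80 to 2.17 and from 1.32 to 1.52. The other 10 lost it when genes with low values were kept in the test, and BNIP3, GABARAP, OPTN and ATG4D lost it in no other setting (adjusted p from 0.051 to 0.072). VMP1 also lost it when any 1 library was left out, with adjusted p from 0.059 to 0.096. TAX1BP1 lost it without the second KO library (log2 fold change 0.43; adjusted p = 0.157), without the first WT library (0.061) and without the second WT library (0.155). RB1CC1 lost it without the first KO library (adjusted p = 0.062), the second KO library (0.134) or the second WT library (log2 fold change 0.57; adjusted p = 0.094). PINK1 and WIPI1 lost theirs without the second KO library (adjusted p = 0.068 and 0.085) or the first WT library (0.059 and 0.085), and VCP lost its call without either WT library (0.065 without the first, 0.071 without the second). No called gene changed sign under these settings.

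**Figure D4:**
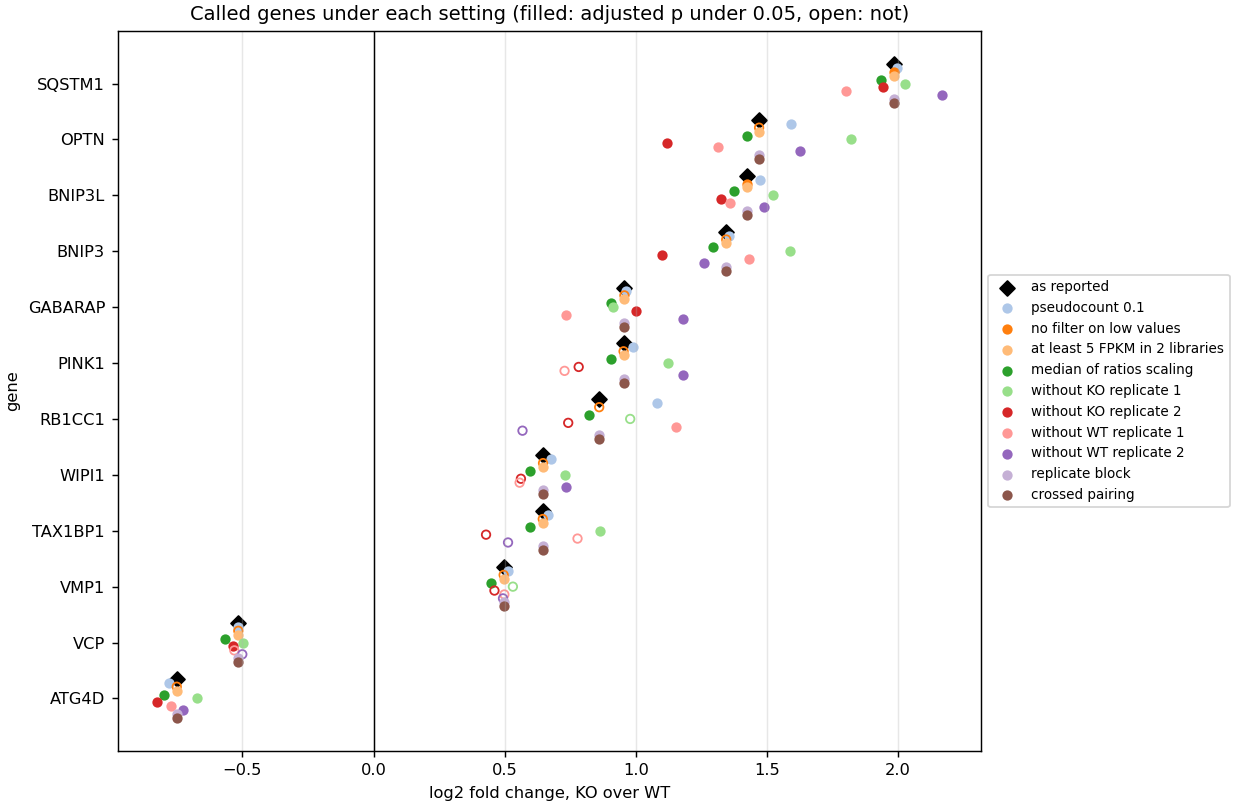
Log2 fold change, KO over WT, of the 12 called genes as reported (black diamonds) and under each other setting (circles, by colour; filled where the adjusted p is under 0.05, open where not). Every point keeps the sign reported; SQSTM1 and BNIP3L have filled points throughout, and VMP1 has open points for each library left out.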

How the data were processed

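RNA sequencing of 2 KO and 2 WT libraries of MDA-MB-231 cells was analysed. Per the labels' protocols, total RNA was extracted with Trizol and prepared with an Illumina TruSeq RNA kit. Per the file headers, the values that the authors deposited are FPKM, with 1 column per library. The submitters' processing notes name HISAT, StringTie, Cufflinks, GATK and the build hg38, without roles or versions, and no source used here says how strand was handled. FPKM is divided by library size, so counting error cannot be read from it. Groups follow the genotype labels.

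Values were analysed as log2(FPKM + 1), which understates the change of low genes. The test took genes that reached 1 FPKM in 2 or more libraries, with no added scaling, and used limma 3.58.1 (R 4.3.3; moderated two-sided test, mean-variance trend), with Benjamini-Hochberg adjustment over 11786 genes. Adjusted p-values of single genes come from that fit, except where an alternative setting is named. The fit was also run on simulated data with far fewer changed genes and independent libraries, which cannot vouch for the calls made here. The members and gene lists were chosen with earlier results of these data known. Every member may be named. Values per library are given for the called ones, for uncalled ones with an absolute log2 fold change of at least 0.3 and for their paralogs. NBR1, TOLLIP, FUNDC1, ULK1, BECN1, TP53INP2, EPG5 and the untested MAP1LC3A and ULK2 are given by library outside that rule, after their values were seen. The other pathway genes are named by the 4 smallest adjusted p in each direction. A gene that this rule takes is not reported here. Marker lists (breast line, luminal, leukocyte, endothelial, fibroblast) describe the cells. Alternatives were a pseudocount of 0.1, no filter, at least 5 FPKM in 2 libraries, median-of-ratios scaling, each library left out, and a replicate block. Low-value steps were sought in single-transcript genes shorter than 900 bases, where 55.3% to 57.3% of the genes lay within 0.15 of a whole multiple. Python 3.11.15 and pandas 2.3.3 served for tables, and sequences come from RefSeq and GENCODE 29 tables. Protein sequences were not used here.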

Additional observations from a re-analysis of the deposited data

How the results depend on the processing

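As reported, 3184 of all tested genes were called, with 10 autophagy genes higher and 2 lower in KO, and 22 and 6 of the other pathway genes. With no filter on low values, which raised the number tested to 19833, 525 genes were called, 2 autophagy genes higher and 0 lower, and 3 other pathway genes higher and 0 lower (limma; cause not tested beyond that change). Leaving out 1 library at a time, with the lone library assumed to vary like the other group, gave 1402 to 1902 calls, 5 to 9 autophagy genes higher and 1 to 2 lower, and 8 to 15 other pathway genes higher and 1 to 3 lower. The lowest counts of autophagy genes higher, 5 and 6, came without the second KO and without the first WT library. A pseudocount of 0.1 gave 3063 calls, median-of-ratios scaling 3120 and the 5 FPKM minimum 2601; the same 12 autophagy genes were called under the pseudocount and the scaling, and 11 of them under the minimum, where RB1CC1 was not tested. Among genes that did not pass, leaving out 1 library moved the log2 fold change of ATG4A over a range from -0.14 to 0.40, and that of GABARAPL2 from -0.35 to 0.063. Their groups overlapped, and the cause was not tested. GABARAPL1 ranged from 0.28 to 1.05 and passed without the second WT library (adjusted p = 0.0148), and ATG10 ranged from 0.29 to 0.84 and passed without the first KO library (adjusted p = 0.0390). Median-of-ratios scaling called 1631 genes higher and 1489 lower, against 1906 and 1278 as reported. Same-numbered libraries share only a number: the replicate differences of KO and WT correlated at -0.18 across 11786 genes. The fit with a replicate block gave 2864 calls, with 12 autophagy genes higher, ATG10 and GABARAPL1 being added, and 2 lower. Because that correlation was negative, a crossed pairing was added after seeing the data, and it gave 4170 calls, with 13 autophagy genes higher and 2 lower. With 2 libraries per group and depth known only roughly, small differences and genes near 1 FPKM could not be resolved.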

Other observations

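Among the other pathway genes, 2 more were picked after their values were seen. NFE2L2, which encodes NRF2, the antioxidant regulator released when SQSTM1 binds KEAP1, had 34.5 and 44.4 FPKM in KO and 18.0 and 12.8 FPKM in WT (log2 fold change 1.31 ± 0.19, SE, n = 2 per group; adjusted p = 0.0044, limma). DDIT4 (REDD1), an inhibitor of mTORC1 that is known to be induced by hypoxia and stress, had 252 and 221 FPKM in KO and 54.8 and 132 FPKM in WT (log2 fold change 1.46 ± 0.34; adjusted p = 0.0188). Its WT libraries differed widely from each other, and both lay below the KO libraries. Of the 18 upstream signalling genes tested, 5 rose, DDIT4 among them, and 2 fell (16.2% and 10.8% of all tested genes did). KEAP1 did not pass (log2 fold change 0.06), and no link among these genes was tested.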
